A study of Mesocricetus auratus with 36 samples.

Results

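Amino acid transporter genes were followed through the hibernation season in the ependymal strip of the mediobasal hypothalamus of male golden hamsters (Mesocricetus auratus). The genes were all those named as members of the solute carrier families Slc1a, Slc6a, Slc7a, Slc36a, Slc38a and Slc43a, plus Slc3a2, with Slc1a2, Slc1a3 and Slc7a8 left out and with a mean of at least 0.5 counts per 1e6 counts (CPM) over the 36 libraries. Of the 32340 genes in the tables, 54 carried such a name and 43 of these reached the minimum. The genes just inside it were Slc38a11 (0.507 CPM) and Slc1a7 (0.628 CPM), and those just outside were Slc38a4 (0.381 CPM) and Slc43a1 (0.319 CPM). The other 9 below it were Slc36a2, Slc6a2, Slc6a4, Slc6a5, Slc6a14, Slc6a16, Slc6a18, Slc6a19 and Slc7a9. All 43 also passed the filter on low counts, so every one was tested.

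Solute carriers of these families move amino acids across the plasma membrane or the membranes of lysosomes and vesicles. Some are exchangers, and some are driven by sodium or protons. Most light chains of the Slc7a family reach the cell surface only when paired with the heavy chain Slc3a2. In brain, astrocytes and other glia take up glutamate, GABA and glycine after synaptic release and return glutamine to neurons, and the endothelium of the blood-brain barrier carries essential amino acids inward. Tanycytes, elongated glia of the ventricular wall in the mediobasal hypothalamus, have been described as sensors of amino acids in the cerebrospinal fluid.

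Of the 43 genes, 39 encode amino acid carriers or a subunit of one. The other 4 match the naming rule but carry no amino acids: Slc6a3 carries dopamine, Slc6a8 carries creatine, Slc43a3 carries purine bases, and Slc7a6os is named for its position beside Slc7a6 and is not a carrier. These 4 were kept and are described last.

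The strip was cut out by laser capture to enrich for tanycytes, from 6 animals in each of 6 groups. The long photoperiod group had 14 h of light at 22 °C and was 8 months old by the labels. The 5 other groups had been moved to 10 h of light and 8 °C. They were the pre-hibernation group (4 weeks after the move, 4 months old), the late pre-hibernation group (8 to 12 weeks, before any torpor, 6 months old), the interbout euthermia group (after 3 cycles of torpor and arousal, 23 h into the warm interval between bouts, 6 months old), the torpor group (after 3 cycles, 13 h into a bout, 6 months old) and the refractory group (at about 20 weeks of short days, at least 2 weeks after the last bout, 8 months old). The protocol places the sampling of long photoperiod animals partly ahead of the move and partly at the close of the study, so not every one need have had the labelled age. Day length, temperature and age differ together between long photoperiod and the other groups and cannot be told apart.

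Library totals ran from 5.16 to 28.54 M counts (M, 1e6) around a median of 22.44 M. Refractory 4, pre-hibernation 5 and interbout 6 stood apart, with 41.8%, 9.28% and 7.21% of their counts on ribosomal RNA genes, while the other 33 had at most 0.826%. They are named rRNA-rich here, and the main counts are given with and without them. All 19 tanycyte markers were in the tables, with summed levels of 1596 to 4041 CPM, beside 3067 to 6154 CPM for 13 markers of ciliated ependymal cells and 422.1 to 1239 CPM for 16 neuron markers. The strip therefore also held RNA of other cell types. Summed levels of 10 pituitary markers had medians of 405.0 CPM on long photoperiod and 312.3 CPM in the refractory group. In pre-hibernation, late pre-hibernation, interbout euthermia and torpor the medians were 109.1, 109.2, 115.3 and 110.3 CPM, with overlap between all groups. By the test described below, 2, 1, 5 and 5 of the 9 pituitary markers tested were lower there than on long photoperiod. Of all genes, 0.681%, 1.33%, 0.642% and 4.73% were. In the refractory group 0 were lower, and 5 were higher than in interbout euthermia, beside 2.04% of all genes. The part of this difference in the results below was not tested. Levels below are normalised CPM, with the lowest, the median and the highest of the 6 libraries of a group, and differences are log2 fold changes ± SE from edgeR's quasi-likelihood fit. A difference passed when its Benjamini-Hochberg adjusted p over all 17926 genes tested was below 0.05. In bulk tissue, fewer cells of a type and less RNA per cell cannot be told apart.

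Levels between genes were compared per kilobase of exon (RPKM). Slc3a2, the shared heavy chain, had the highest level, with a mean of 222 RPKM over the 36 libraries. Other high levels were those of Slc38a3, a glutamine carrier of glia (54.3 RPKM), Slc6a9, the glial glycine carrier (36.8 RPKM), Slc43a3 (36.6 RPKM) and Slc1a4, a carrier of alanine, serine and cysteine (33.4 RPKM). The lowest was Slc6a20 at 0.150 RPKM. By role, the 10 SLC38 carriers lay between 0.297 and 54.3 RPKM, the 5 SLC1 carriers between 0.244 and 33.4 RPKM, 9 SLC6 carriers of amino acids between 0.150 and 36.8 RPKM, the 5 cationic SLC7 carriers between 0.702 and 6.22 RPKM, and the 3 carriers of SLC36 and SLC43 between 2.07 and 6.56 RPKM. Per library, 3 of the 43 genes averaged under 1 CPM, 13 between 1 and 10 CPM, 19 between 10 and 100 CPM, and 8 above 100 CPM.

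**Figure D1:**
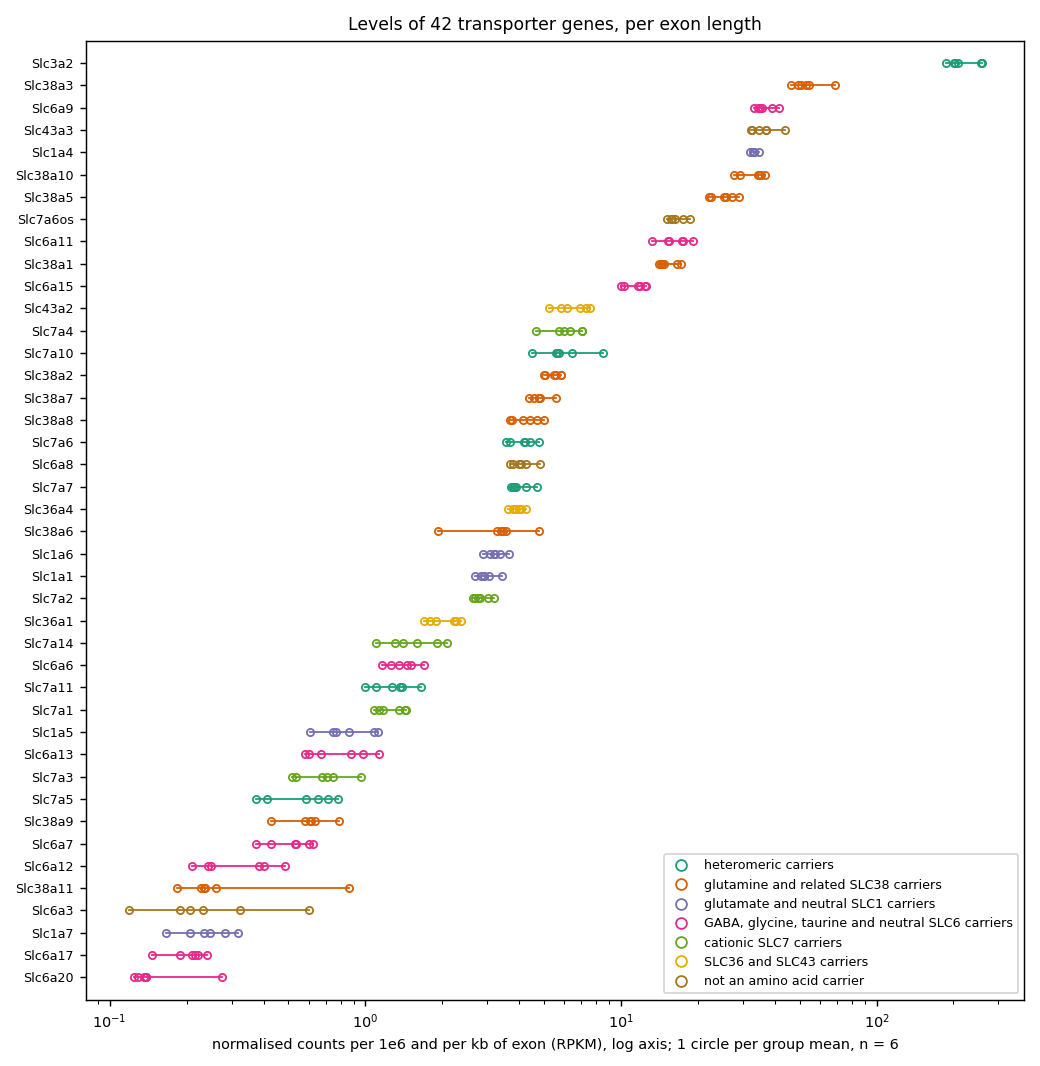
Level of 42 of the 43 genes as counts per 1e6 and per kb of exon (RPKM, log axis), with 1 circle for each of the 6 group means (n = 6 animals) and a line from the lowest to the highest group mean; colours give the role. Slc3a2 lies far to the right of the rest, and for most genes the 6 group means lie close together.

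With all libraries, few of these genes changed over the season. Between the highest and the lowest group mean the ratio was under 1.5 for 26 of the 43 genes, between 1.5 and 2 for 11, and 2 or more for 6 (Slc38a6, Slc7a5, Slc6a12, Slc38a11, Slc6a3 and Slc6a20). Leaving out the rRNA-rich libraries, the ratio was 2 or more for 3 of 43, Slc38a6, Slc6a3 and Slc7a10, while that of Slc38a11 went from 4.72 to 1.62, that of Slc6a20 from 2.21 to 1.41, that of Slc6a12 from 2.30 to 1.91 and that of Slc7a5 from 2.08 to 1.95. Among the 6 groups 2 of 43 differed, Slc38a6 (adjusted p = 0.000173) and Slc38a3 (adjusted p = 0.0438), where 14.6% of all genes tested did. The call of Slc38a3 held in 20 of 36 fits that left out 1 library, and was lost with neuron and oligodendrocyte covariates (adjusted p = 0.0510). Without the rRNA-rich libraries 12 of 43 differed (Slc38a6, Slc3a2, Slc38a3, Slc7a1, Slc36a1, Slc38a1, Slc6a15, Slc6a9, Slc7a6os, Slc6a3, Slc7a7 and Slc7a6), where 27.7% of all genes did. The median SD within a group was 0.380 on the log2 scale for the 43 genes and 0.360 for all genes tested. The mean was lowest in pre-hibernation for 18 of the 43 genes, beside 12.3% of all genes tested, and in 12 of 43 and 14.4% without the rRNA-rich libraries. The refractory group had the highest mean for 18 of 43, beside 31.3% of all genes, and for 16 of 43 and 19.2% without those libraries.

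**Figure D2:**
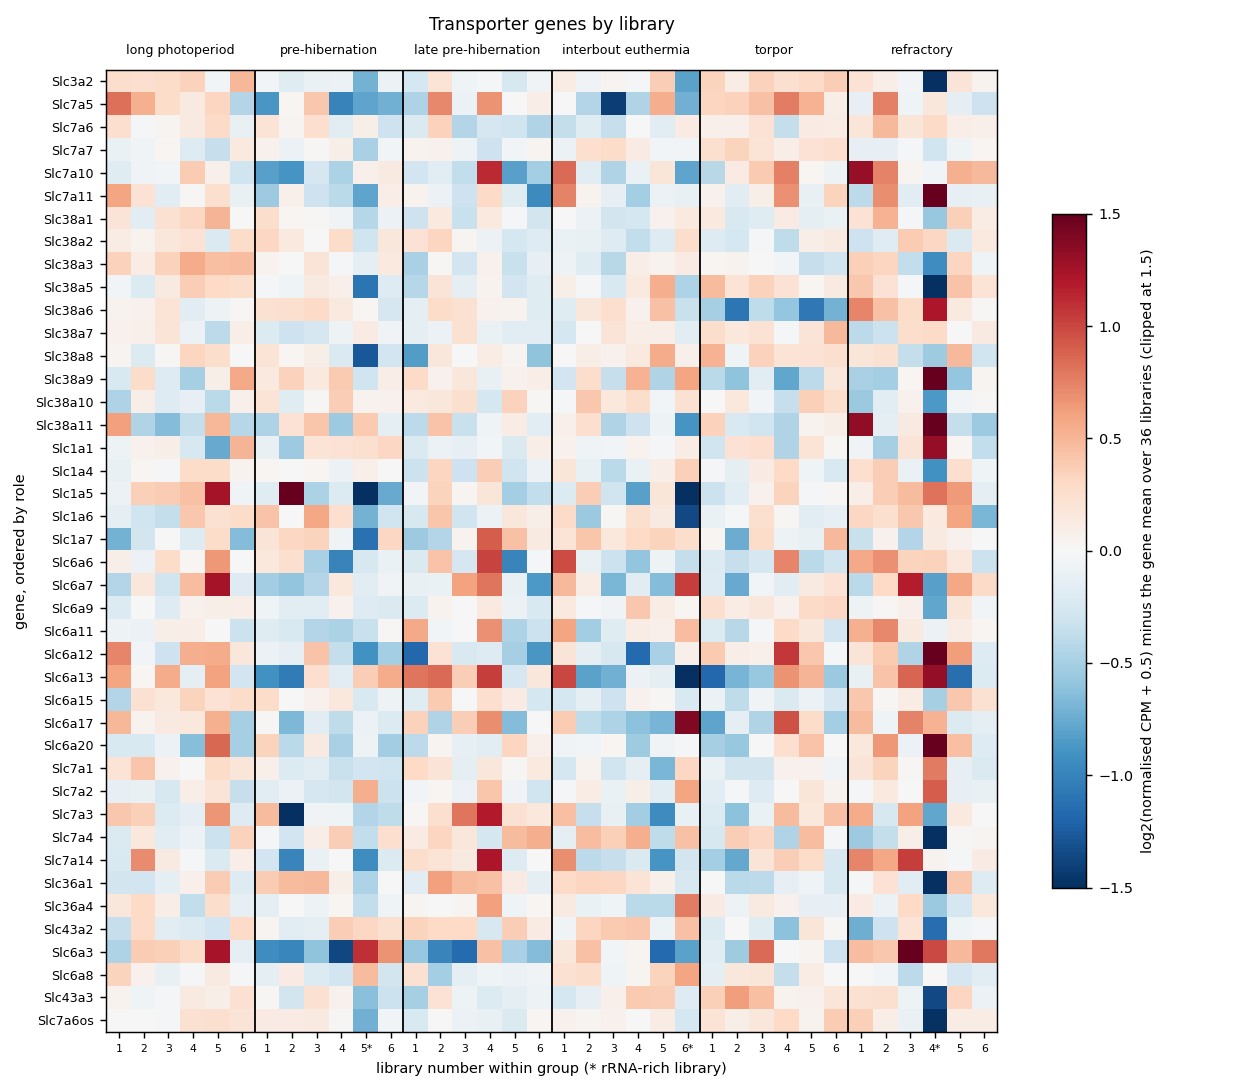
Each of 42 genes (row, ordered by role) in each of the 36 libraries (column, by group), as log2(normalised CPM + 0.5) minus the gene's mean over the 36 libraries; red is above and blue below the mean, colours end at 1.5 either way, and asterisks mark the rRNA-rich libraries. Slc38a6 is blue in all 6 torpor libraries, and refractory 4 departs from the other libraries in many rows.

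The SLC38 carriers, which move glutamine and other small neutral amino acids, held both genes that differed among the 6 groups. Slc38a6 was lower in torpor than in any other group. This gene encodes a carrier that has been linked to glutamine and glutamate transport, and on assembly BCM_Maur_2.0 it spans positions 43262300 to 43326609 of an unplaced contig on the minus strand, annotated as protein-coding. Its levels were 6.66, 7.77 and 8.79 CPM on long photoperiod (lowest, median, highest), 6.29, 8.67 and 9.34 CPM in pre-hibernation, and 6.61, 7.90 and 9.29 CPM in late pre-hibernation. In interbout euthermia they were 5.91, 8.23 and 10.4 CPM, in torpor 3.30, 4.68 and 5.68 CPM, and in the refractory group 7.67, 9.86 and 18.2 CPM.

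All 6 torpor libraries lay below all 30 others, the nearest being interbout 6. Slc38a6 was the single one of the 43 genes with such a gap, a pattern picked after the values were seen, and 0.703% of all genes tested lay below in torpor in this way. Against interbout euthermia, from which the torpid animals differed in state but not in age, light or ambient temperature, Slc38a6 fell by 0.85 ± 0.17 on the log2 scale (1.81-fold, 95% interval -1.21 to -0.50, adjusted p = 0.00216). This was the 1 of 43 genes that passed in this comparison, where 4.06% of all genes did and 2.93% fell, and the 1 without overlap, as for 3.94% of all genes. The fall passed in 12 of 12 fits that left out 1 library, with a highest adjusted p of 0.00793. Without the rRNA-rich libraries the difference was -0.94 ± 0.15 (adjusted p = 4.69e-05). Against long photoperiod Slc38a6 in torpor also fell (-0.78 ± 0.17, adjusted p = 0.00277), again in 12 of 12 such fits, though not with long photoperiod 4 to 6 as the only controls (-0.69, adjusted p = 0.0671). The torpor libraries held 68 to 138 counts of Slc38a6 and the interbout libraries 74 to 278. Summed tanycyte markers were 2040 to 3353 CPM in torpor and 2406 to 3502 CPM during interbout euthermia, and summed neuron markers 486.1 to 871.4 CPM and 422.1 to 850.2 CPM, so that for both lists the groups overlapped. The part of cell content in the fall of Slc38a6 was not tested.

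Slc38a3, which carries glutamine in and out of glia and endothelium, was highest on long photoperiod. It spans positions 45747268 to 45761654 of another contig on the minus strand. Levels were 138.2, 169.1 and 188.0 CPM on long photoperiod, 116.7, 130.3 and 145.9 CPM in pre-hibernation, 90.8, 111.0 and 133.5 CPM at late pre-hibernation, 95.6, 127.1 and 139.3 CPM during interbout euthermia, and 100.5, 126.1 and 133.0 CPM in torpor. The late pre-hibernation and torpor libraries all lay below all long photoperiod libraries, while 4 of 6 pre-hibernation and 5 of 6 interbout libraries did. In the refractory group 66.8, 141.1 and 163.6 CPM were measured, the lowest in the rRNA-rich refractory 4.

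In late pre-hibernation Slc38a3 fell by 0.57 ± 0.14 on the log2 scale (95% interval -0.86 to -0.28, adjusted p = 0.0154). It was the 1 of 43 genes that passed there, where 3.58% of all genes did and 1.33% fell. It was also the 1 gene whose libraries did not overlap between the groups, as for 4.49% of all genes. This call held in 11 of 12 fits that left out 1 library and was lost without late pre-hibernation 1 (adjusted p = 0.0571). In torpor Slc38a3 stood 0.48 ± 0.14 below long photoperiod (-0.48, adjusted p = 0.0289). That call held in 8 of 12 such fits and was lost without long photoperiod 4 or 6 or torpor 5 or 6, with a highest adjusted p of 0.0817. Both calls were also lost with no filter beyond 1 count (adjusted p = 0.0904 and 0.116) and with only 3 of the long photoperiod libraries as controls. The differences in pre-hibernation (-0.35 ± 0.14, adjusted p = 0.282), interbout euthermia (-0.44 ± 0.14, adjusted p = 0.119) and the refractory group (-0.37 ± 0.14, adjusted p = 0.232) did not pass. That of interbout euthermia passed without the rRNA-rich libraries (-0.48 ± 0.11, adjusted p = 0.0101). These comparisons share the long photoperiod libraries.

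Endothelial markers were also lower in late pre-hibernation in their summed level. The 11 endothelial markers in the tables were detected in every library. Their summed level was 765.8 to 1026 CPM on long photoperiod and 507.3 to 591.0 CPM in late pre-hibernation. It was 460.1 to 746.9 CPM in interbout euthermia, without overlap with long photoperiod, and 528.1 to 851.5 CPM in torpor, where it overlapped with long photoperiod. In late pre-hibernation 1 of the 11, the organic anion carrier Slco1c1, fell and 0 rose, and the median over the list was -0.24 beside -0.003 for all genes. The sum rests largely on Slco1c1 and Slc2a1. Their means were 308.4 and 455.9 CPM on long photoperiod and 102.5 and 350.0 CPM in late pre-hibernation, so the sum need not follow the other markers. In torpor 0 of the 11 passed (median -0.10). In the refractory group the summed level was 308.0 to 795.9 CPM, lowest in the rRNA-rich refractory 4, and it overlapped with long photoperiod. There 0 of the 11 passed, and the median was 0.52, or 0.21 without the rRNA-rich libraries. The difference in Slc38a3 in that group was -0.37. Summed astrocyte markers (10 in the tables, all detected in every library) were 3564 to 4664 CPM on long photoperiod, 2738 to 4673 CPM in late pre-hibernation and 3656 to 5161 CPM in torpor. With the mean levels of both lists as covariates, a fit chosen after seeing the data, the difference in Slc38a3 was -0.33 in late pre-hibernation (adjusted p = 0.211) and -0.51 in torpor (adjusted p = 0.00464). Both lists hold genes that themselves differed by group. The endothelial marker Slco1c1 fell in late pre-hibernation, and the astrocyte marker Ntsr2 fell in each of the other groups against long photoperiod. Such covariates carry part of the group difference, so this fit cannot separate cell content from other differences. The part of these cells in the result was not tested.

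Of the other 8 SLC38 carriers, 0 passed in any of the 9 comparisons, with or without the rRNA-rich libraries. Slc38a1 and Slc38a2 are sodium-coupled carriers that load neurons and other cells with glutamine. Slc38a1 had medians of 134.9, 115.1, 105.3, 113.4, 107.1 and 130.6 CPM in the 6 groups, from long photoperiod to refractory, with overlapping libraries throughout. It differed among the groups only without the rRNA-rich libraries (adjusted p = 0.0243, against 0.363 with them). Slc38a2, a classical target of amino acid shortage, ranged from 19.6 to 33.4 CPM over all libraries and group medians lay between 22.99 and 28.6 CPM. Slc38a9, a lysosomal sensor of arginine upstream of mTORC1, had group medians of 1.97 to 3.11 CPM, lowest in torpor (1.40, 1.97 and 3.16 CPM), and reached 12.3 CPM in refractory 4.

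**Figure D3:**
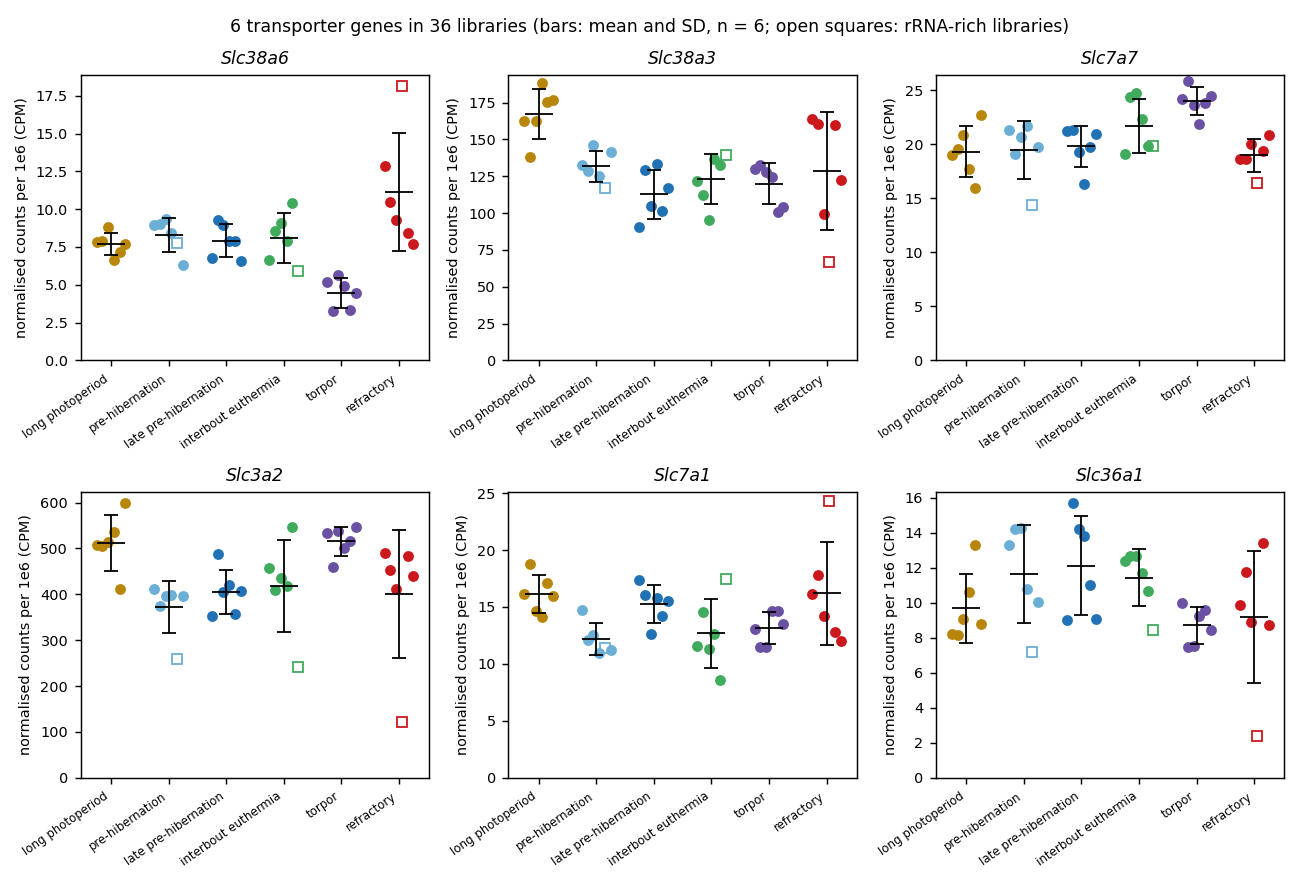
Normalised CPM of 6 genes in each library, by group (filled circles, 1 animal each; open squares are rRNA-rich libraries), with black bars for the mean and SD of 6 animals. The torpor libraries of Slc38a6 lie below every other library, Slc38a3 is highest on long photoperiod, and the lowest values of Slc3a2 and Slc36a1 are open squares.

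The heteromeric carriers are the heavy chain Slc3a2 with its light chains Slc7a5 and Slc7a6 (large neutral and dibasic amino acids), Slc7a7 (dibasic amino acids), Slc7a10 (small neutral amino acids) and Slc7a11 (cystine for glutamate). Slc3a2 spans positions 50204240 to 50218955 of a contig on the plus strand. Its level was 411.0, 510.4 and 599.6 CPM on long photoperiod, 259.7, 396.5 and 411.7 CPM in pre-hibernation and 353.4, 406.5 and 487.6 CPM in late pre-hibernation. It was 242.0, 426.6 and 546.3 CPM during interbout euthermia, 459.2, 524.6 and 546.1 CPM during torpor, and 120.6, 446.9 and 490.6 CPM in the refractory group. The lowest library of pre-hibernation, of interbout euthermia and of the refractory group was in each case the rRNA-rich one.

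With all libraries, Slc3a2 did not pass in pre-hibernation (-0.46 ± 0.19, adjusted p = 0.284), though 5 of 6 libraries lay below all those of long photoperiod, nor in late pre-hibernation (-0.34 ± 0.19, adjusted p = 0.474). Of the 43 genes, 0 passed in pre-hibernation, where 2.29% of all genes did, and 4 had an unadjusted p below 0.05, as did 12.3% of all genes. DESeq2 also called 0 of the 43, and 3.55% of all genes. Without the rRNA-rich libraries Slc3a2 fell in pre-hibernation (-0.38 ± 0.08, adjusted p = 0.00302; 395.4 ± 13.7 CPM, n = 5, against 512.3 ± 60.9 CPM, n = 6) and in late pre-hibernation (-0.34 ± 0.08, adjusted p = 0.00318). It was then among 2 and 3 of the 43 genes that passed, beside 6.37% and 9.76% of all genes. Summed endothelial markers were 490.2 to 684.1 CPM in pre-hibernation and did not overlap with long photoperiod. With endothelial and astrocyte markers as covariates the difference in Slc3a2 was -0.02 (adjusted p = 0.972) in pre-hibernation and 0.04 (adjusted p = 0.924) in late pre-hibernation. The mean of Ntsr2, in the astrocyte list, was 220.2 CPM on long photoperiod, 53.8 CPM in pre-hibernation and 56.6 CPM in late pre-hibernation. These covariates thus carry part of the group difference, and the part of cell content in the Slc3a2 result was not tested.

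Slc7a7 was the 1 of 43 genes that rose in any comparison. Its levels were 15.95, 19.3 and 22.7 CPM on long photoperiod and 21.9, 24.0 and 25.9 CPM in torpor, and 5 of 6 torpor libraries lay above all those of long photoperiod. The rise was 0.31 ± 0.10 (95% interval 0.11 to 0.52, adjusted p = 0.0409), and held in 2 of 12 fits that left out 1 library, with a highest adjusted p of 0.147 without long photoperiod 5. It was lost with no filter beyond 1 count (adjusted p = 0.232) and with neuron and oligodendrocyte markers as covariates (adjusted p = 0.0903). In interbout euthermia Slc7a7 stood at 19.1, 21.1 and 24.8 CPM, overlapping with torpor. Slc7a7 is also expressed by macrophages, and the 14 microglia and macrophage markers in the tables summed to 369.5 to 479.3 CPM on long photoperiod, 352.8 to 761.2 CPM during interbout euthermia and 316.9 to 498.0 CPM in torpor, with overlap between all 3 groups. The part of these cells in the Slc7a7 result was not tested.

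Torpor against long photoperiod thus had 3 of 43 genes that passed (Slc38a6 and Slc38a3 lower, Slc7a7 higher), where 9.05% of all genes did, 4.73% lower and 4.32% higher. The libraries of both groups did not overlap for 2 of 43 genes, Slc38a6 and Slc38a3, and for 7.77% of all genes. The median log2 fold change of the 43 was -0.06, beside 0.01 for all genes. Leaving out the rRNA-rich libraries, 5 of 43 passed, where 21.2% of all genes did, and the added falls were those of Slc7a1 (-0.31 ± 0.11, adjusted p = 0.0453) and Slc6a15 (-0.34 ± 0.11, adjusted p = 0.0228).

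Of the other light chains, 0 passed in any comparison. Slc7a5, the best known partner of Slc3a2 at the blood-brain barrier, was low throughout, with group medians of 2.30, 0.845, 1.85, 1.17, 2.48 and 1.63 CPM from long photoperiod to refractory. Pre-hibernation and interbout euthermia held its lowest values, and the difference between pre-hibernation and long photoperiod had a wide interval (-0.91, 95% interval -1.65 to -0.17, adjusted p = 0.247). Slc7a11 stood at 10.03, 12.2 and 17.1 CPM on long photoperiod and 6.30, 8.64 and 12.0 CPM in pre-hibernation, with overlap, and reached 33.2 CPM in refractory 4. Slc7a6 was lowest in late pre-hibernation (13.98, 15.8 and 24.5 CPM), where 5 of 6 libraries lay below all those of long photoperiod (17.8, 20.5 and 23.6 CPM) and late pre-hibernation 2 lay above all of them (-0.31 ± 0.13, adjusted p = 0.239).

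In normalised RPKM, Slc3a2 exceeded its light chains in every group. The 5 light chains among the 43 genes summed to 15.9 ± 1.02 RPKM on long photoperiod, 13.8 ± 1.095 in pre-hibernation, 14.7 ± 3.73 at late pre-hibernation, 15.3 ± 2.502 during interbout euthermia, 17.5 ± 1.76 during torpor and 19.3 ± 3.04 in the refractory group (SD, n = 6). Slc3a2 stood at 256.4 ± 30.5, 186.6 ± 28.4, 202.8 ± 24.5, 209.2 ± 49.8, 258.1 ± 15.95 and 200.3 ± 70.1 RPKM in the same order. Slc7a8, a light chain outside the set, added 0.906 to 1.64 RPKM. With all libraries it passed in the refractory group against interbout euthermia.

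The cationic carriers are Slc7a1, Slc7a2 and Slc7a3, which take up arginine and lysine, with their relatives Slc7a4 and Slc7a14. None of the 5 passed with all libraries. Slc7a1 stood at 14.1, 16.05 and 18.8 CPM on long photoperiod, 10.96, 11.8 and 14.8 CPM in pre-hibernation, 12.6, 15.7 and 17.35 CPM at late pre-hibernation, 8.55, 12.1 and 17.4 CPM during interbout euthermia, 11.5, 13.3 and 14.6 CPM during torpor, and 11.99, 15.15 and 24.3 CPM in the refractory group. In pre-hibernation 5 of 6 libraries lay below all those of long photoperiod (-0.40 ± 0.14, adjusted p = 0.162). In interbout euthermia 4 of 6 did (-0.35 ± 0.14, adjusted p = 0.282).

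Without the rRNA-rich libraries Slc7a1 fell in pre-hibernation (-0.40 ± 0.12, adjusted p = 0.0393), in interbout euthermia (-0.46 ± 0.12, adjusted p = 0.0207) and, as given above, in torpor. Of the 43 genes, 0 passed in interbout euthermia against long photoperiod with all libraries, where 1.85% of all genes did. An unadjusted p below 0.05 was reached by 6 of the 43 and by 11.5% of all genes. DESeq2 called 1 of the 43 and 3.37% of all genes. With the rRNA-rich libraries left out 2 passed (Slc7a1 and Slc38a3), where 4.73% of all genes did.

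The SLC1 carriers comprise the glutamate carriers Slc1a1, Slc1a6 and Slc1a7 and the neutral amino acid exchangers Slc1a4 and Slc1a5, and 0 of 5 passed in any comparison or among the 6 groups. Slc1a4 varied little, with group medians of 139.6, 136.9, 118.8, 135.2, 131.3 and 145.2 CPM, and its libraries overlapped between all groups. Slc1a5, an exchanger that takes up glutamine, was low, with group medians between 1.58 and 3.00 CPM, and single libraries reached 8.03 CPM (pre-hibernation 2) and 5.72 CPM (long photoperiod 5). Slc1a7, named after its values were seen because its refractory and interbout libraries did not overlap, stood at 0.301, 0.605 and 0.685 CPM in the refractory group and 0.703, 0.813 and 0.947 CPM in interbout euthermia. That difference did not pass the test and rests on few counts, and 1.26% of all genes tested had no overlap there.

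The SLC6 carriers of amino acids include the GABA carriers Slc6a11, Slc6a12 and Slc6a13, the glycine carrier Slc6a9, the taurine carrier Slc6a6, and Slc6a7, Slc6a15, Slc6a17 and Slc6a20 for proline and other neutral amino acids. With all libraries, 0 of these 9 passed in any comparison. Slc6a11, the GABA carrier of astrocytes, ranged from 44.6 to 106.4 CPM with overlap between all groups.

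Slc6a9 was highest in torpor, at 130.2, 143.6 and 154.9 CPM against 108.1, 127.0 and 133.1 CPM on long photoperiod, and 5 of 6 torpor libraries lay above all of the latter (0.22 ± 0.11, adjusted p = 0.231). Slc6a15, which carries branched-chain amino acids and proline, stood at 29.7, 47.2 and 51.01 CPM on long photoperiod and 30.9, 36.5 and 39.15 CPM in torpor. Long photoperiod 1 lay below all torpor libraries, and the other 5 long photoperiod libraries lay above all of them. With all libraries the difference was -0.32 ± 0.13 (adjusted p = 0.129). Slc6a6 overlapped between all groups, with group medians of 7.15 to 11.25 CPM.

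Of the SLC36 carriers Slc36a1 and Slc36a4, the first exports amino acids from lysosomes together with protons, and Slc43a2 carries large neutral amino acids. Slc36a1 was lower in torpor (7.48, 8.85 and 9.99 CPM) than in most interbout libraries (8.47, 12.1 and 12.7 CPM), and the single interbout library within the torpor range was the rRNA-rich interbout 6. With all libraries the difference did not pass (-0.39 ± 0.21, 95% interval -0.81 to 0.02, adjusted p = 0.372). Slc36a1 fell in torpor once the rRNA-rich libraries were left out (-0.48 ± 0.15, adjusted p = 0.0337; 8.72 ± 1.06 CPM, n = 6, against 12.03 ± 0.848 CPM, n = 5). It and Slc38a6 were then the 2 of 43 genes that passed against interbout euthermia, where 8.94% of all genes did. Slc36a4 had group medians between 20.6 and 24.0 CPM and did not pass in any comparison.

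**Figure D4:**
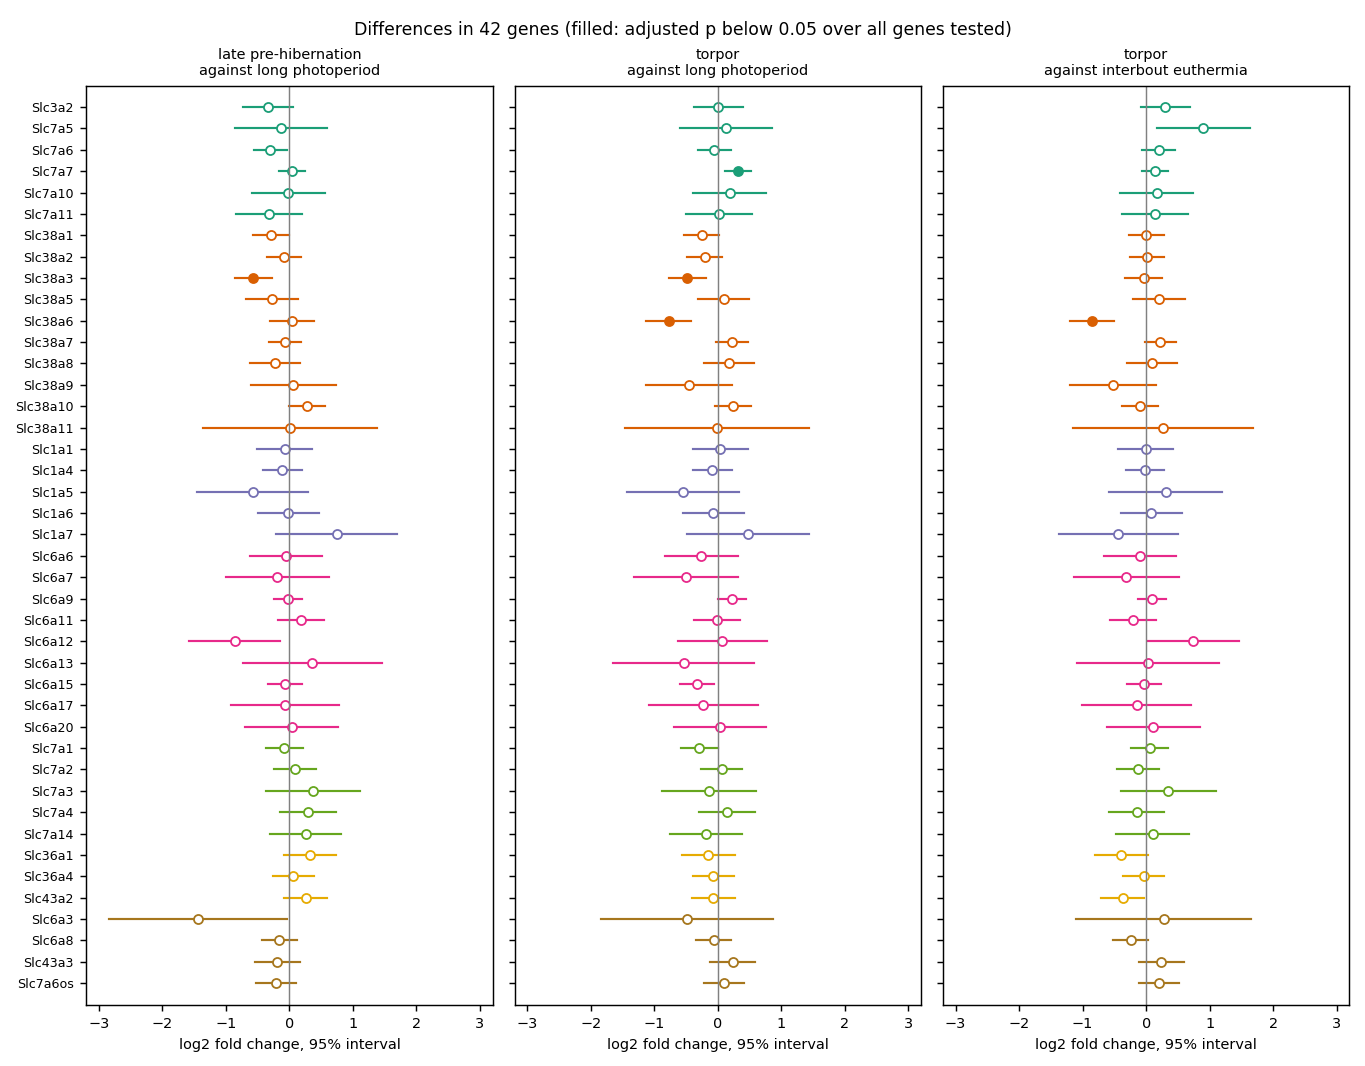
Log2 fold change of 42 of the 43 genes (circles) with its 95% interval (lines) in 3 comparisons of 6 against 6 animals; filled circles passed at an adjusted p below 0.05 over all genes tested, and colours give the role. The filled circles are Slc38a3 at late pre-hibernation, Slc38a3, Slc38a6 and Slc7a7 in torpor against long photoperiod, and Slc38a6 in torpor against interbout euthermia.

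The 4 genes that are not amino acid carriers showed 0 differences that passed with all libraries. Slc6a3, the dopamine carrier, was scarce, with group medians of 0.259 to 1.52 CPM, and single libraries set the upper end of 4 groups. Slc43a3 ranged from 69.4 to 166.5 CPM outside refractory 4 (41.8 CPM) and was highest in torpor (111.6, 129.9 and 166.5 CPM). Slc7a6os stood at 37.98, 41.1 and 45.3 CPM on long photoperiod and 32.7, 35.8 and 39.2 CPM in late pre-hibernation. It passed there only without the rRNA-rich libraries (-0.21 ± 0.07, adjusted p = 0.0414). With endothelial and astrocyte markers as covariates the difference was 0.000847 (adjusted p = 0.998), but those covariates carry part of the group difference, as given for Slc3a2.

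Between neighbouring stages from pre-hibernation to interbout euthermia none of the 43 genes passed. In late pre-hibernation against pre-hibernation 0 of 43 passed in the edgeR fit, 5 had an unadjusted p below 0.05 (4.12% of all genes did), and 0% of all genes passed. In interbout euthermia against late pre-hibernation 0 of 43 passed, 2 had an unadjusted p below 0.05 (6.16% of all genes did), and again 0% of all genes passed. DESeq2 called 0 of the 43 in both, and 0.0223% and 0.184% of all genes. With the rRNA-rich libraries left out 0 of 43 passed in both, beside 0% and 0.855% of all genes. The 95% interval lay within a 2-fold change either way for 33 and 35 of the 43 genes, so for most of them a larger difference lay outside the interval.

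The refractory group, which was again reproductive under short days by the labels, was set beside long photoperiod and interbout euthermia. Against long photoperiod 0 of 43 genes passed in edgeR and DESeq2, beside 0.329% and 1.75% of all genes, and 5 had an unadjusted p below 0.05 (13% of all genes did). The 95% interval lay within a 2-fold change for 36 of 43. Against interbout euthermia 0 of 43 passed in edgeR, where 3.5% of all genes did, and 15 had an unadjusted p below 0.05 (19.3% of all genes did). DESeq2 called 1 of the 43 and 5.42% of all genes. The median log2 fold change of the 43 in that comparison was 0.16 beside 0.02 for all genes. Once the rRNA-rich libraries were left out, 0 of 43 passed in either comparison, beside 0.531% and 3.02% of all genes.

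Genes that act with these carriers were read from lists of related genes. Of 26 tested genes listed as other amino acid carriers, 1 rose and 0 fell in torpor against long photoperiod, where 4.32% of all genes rose and 4.73% fell. Leaving out the rRNA-rich libraries, 5 rose and 2 fell, where 21.2% of all genes passed. The gene that rose with all libraries was Cln3, a lysosomal membrane protein that is not an established amino acid carrier. It stood at 38.6, 42.2 and 44.8 CPM against 30.99, 32.1 and 34.9 CPM (0.36 ± 0.09, adjusted p = 0.00524), with no overlap, as for 7.77% of all genes. The median over this list was -0.13 beside 0.01 for all genes. In pre-hibernation, late pre-hibernation and interbout euthermia against long photoperiod, and in torpor against interbout euthermia, 0 of the 26 passed, where 2.29%, 3.58%, 1.85% and 4.06% of all genes did. With the rRNA-rich libraries left out, 1 fell in pre-hibernation, 1 fell in late pre-hibernation and 1 rose in interbout euthermia. In torpor against interbout euthermia 0 then passed. The shares of all genes were 6.37%, 9.76%, 4.73% and 8.94%. In the refractory group 1 fell against long photoperiod (Sfxn1), and 1 rose and 1 fell against interbout euthermia (Sfxn3 and Slc7a8). Of all genes, 0.329% and 3.5% passed there. Without the rRNA-rich libraries 0 passed and 1 fell, beside 0.531% and 3.02% of all genes.

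ATF4 is the transcription factor that raises many carriers and amino acid synthesis enzymes when amino acids are short. Of its 30 listed targets that were tested, 4 rose and 1 fell in torpor against long photoperiod, and 1 rose and 2 fell in torpor against interbout euthermia. The shares over all genes were 4.32% higher and 4.73% lower, and 1.13% higher and 2.93% lower. With the rRNA-rich libraries left out, 5 rose and 1 fell, and 3 rose and 2 fell, where 21.2% and 8.94% of all genes passed. Ppp1r15a, which restores translation after stress, rose from 33.2, 39.65 and 43.2 CPM in interbout euthermia to 56.6, 62.6 and 71.0 CPM in torpor (0.69 ± 0.11, adjusted p = 6.59e-05). Cebpg, a dimer partner of ATF4, fell from 33.1, 37.6 and 43.8 CPM to 18.7, 21.3 and 30.6 CPM (-0.74 ± 0.12, adjusted p = 0.000223). For both genes the torpor and interbout libraries did not overlap, as for 3.94% of all genes.

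Ddit4, an inhibitor of mTORC1, was high in pre-hibernation, late pre-hibernation and interbout euthermia. It stood at 80.65, 85.8 and 102.2 CPM on long photoperiod, 123.7, 134.0 and 158.2 CPM in pre-hibernation, 120.3, 132.1 and 187.5 CPM at late pre-hibernation, 118.6, 160.5 and 175.3 CPM during interbout euthermia and 70.96, 75.1 and 135.4 CPM in torpor. All libraries of those 3 stages lay above all those of long photoperiod, and 3.52%, 4.49% and 2.39% of all genes had no overlap there. Ddit4 fell in torpor against interbout euthermia (-0.81 ± 0.15, adjusted p = 0.000791). Asns, which makes asparagine, rose in late pre-hibernation (0.48 ± 0.14, adjusted p = 0.0342), in 3 of 12 fits that left out 1 library. It also passed in torpor against long photoperiod.

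Of 41 genes of amino acid sensing by mTORC1 that were tested, 0 rose and 2 fell in torpor against interbout euthermia, and 1 rose and 2 fell in torpor against long photoperiod. The shares over all genes were 1.13% higher and 2.93% lower, and 4.32% higher and 4.73% lower. These counts depended on the rRNA-rich libraries: without them 3 rose and 3 fell, and 4 rose and 5 fell. Of all genes, 8.94% and 21.2% then passed. In late pre-hibernation against long photoperiod 0 passed with all libraries and 5 rose and 1 fell without them, where 3.58% and 9.76% of all genes passed. Rps6kb1, the kinase that mTORC1 activates, stood at 28.05, 34.7 and 56.2 CPM during interbout euthermia and 21.8, 26.8 and 30.6 CPM in torpor, with 4 of 6 torpor libraries below all interbout ones (-0.49 ± 0.12, adjusted p = 0.00841). Bmt2, a sensor of S-adenosylmethionine that inhibits mTORC1, fell as well (-0.78 ± 0.16, adjusted p = 0.00306). Sesn3, a sestrin that restrains mTORC1, rose in pre-hibernation (0.56 ± 0.12, adjusted p = 0.00744) and in interbout euthermia (0.56 ± 0.12, adjusted p = 0.00921). In both it had no overlap with long photoperiod, as for 3.52% and 2.39% of all genes. The medians over this list lay between -0.09 and 0.07 in the 9 comparisons, beside -0.01 to 0.03 for all genes.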

How the data were processed

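Deposited counts of 36 RNA-seq libraries, a table for each, were the starting point. Per the file headers, the authors' counts are fragments on RefSeq exons of BCM_Maur_2.0 summed by gene with featureCounts 2.0.1. Counting took no strand, so reads of overlapping or antisense genes cannot be told apart. Alignment settings: not given in the sources used here. By name, 31895 of 32340 genes matched the RefSeq gene table. Identical pairs of libraries were looked for and 0 found.

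After filterByExpr and TMM scaling, 17926 genes entered a single robust quasi-likelihood fit over the 6 groups (edgeR 4.0.16, R 4.3.3). P-values rest on the spread between animals. RPKM divide CPM by exon length. rRNA-rich libraries have over 5% of counts on ribosomal RNA genes. Alternatives used DESeq2 1.42.0 and limma 3.58.1. The fit with endothelial and astrocyte covariates was chosen after seeing the data. The fits were tested on simulated data.

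The genes and lists were chosen with earlier results of these data known. Described in full are genes past the threshold with or without the rRNA-rich libraries, the highest gene of each family by RPKM, and a set of well known carriers. From each related list, only the 3 genes of smallest p past the threshold in a comparison were eligible to be named. Of the 43 genes, 1 is included in the counts and not reported here.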

Additional observations from a re-analysis of the deposited data

Results flagged for a closer look

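Of 138 groups of 6 libraries checked (23 genes in 6 groups), 23 had 1 library far from the other 5, judged by its gap to the nearest other library against the range of the group. For independent values from a normal distribution, chance gives such a library in about 1 in 20 groups. The CPM of scarce genes may be skewed and the 23 genes share the same libraries, so that rate need not hold here.

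The rRNA-rich libraries held 9 of these. In refractory 4, Slc3a2 stood at 120.6 CPM (others 412.0 to 490.6), Slc43a3 at 41.8 CPM (101.4 to 134.1), Slc6a9 at 72.29 CPM (117.5 to 141.4) and Slc38a9 at 12.33 CPM (1.681 to 2.852). In pre-hibernation 5, Slc3a2 stood at 259.7 CPM (373.8 to 411.7), Slc7a6os at 23.02 CPM (37.3 to 41.96) and Slc7a7 at 14.39 CPM (19.14 to 21.65). In interbout 6, Slc36a4 stood at 37.39 CPM (16.39 to 24.1) and Slc7a6os at 31.8 CPM (38.28 to 41.37).

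The other 14 lay in libraries with little ribosomal RNA. The glutamine exchanger Slc1a5 stood at 5.721 CPM in long photoperiod 5 (others 1.951 to 3.036) and 8.034 CPM in pre-hibernation 2 (0.2698 to 1.812). The lysosomal carrier Slc36a4 stood at 33.79 CPM in late pre-hibernation 4 (20.91 to 22.55), the library with the highest sum of neuron markers. The dopamine carrier Slc6a3 stood at 2.523 CPM in long photoperiod 5 (0.4337 to 1.173), 1.239 CPM in late pre-hibernation 4 (0.07801 to 0.4198), 1.822 CPM in torpor 3 (0.3884 to 0.8259) and 5.495 CPM in refractory 3 (1.206 to 2.056). The taurine carrier Slc6a6 stood at 17.78 CPM in interbout 1 (5.628 to 8.289) and 14.94 CPM in torpor 4 (6.516 to 7.541). Interbout 1 also held 19.08 CPM of Slc7a11 (7.696 to 11.67), and torpor 4 held 14.85 CPM of Slc7a6 (20.25 to 22.37). Slc7a6 stood at 24.53 CPM in late pre-hibernation 2 (13.98 to 16.5), Slc6a15 at 29.71 CPM in long photoperiod 1 (45.09 to 51.01) and Slc7a5 at 3.331 CPM in refractory 2 (1.324 to 2.056).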

How the results depend on the processing

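Counts of the 43 genes called depended most on the rRNA-rich libraries and on weighting libraries by quality. Against long photoperiod they were 0, 1, 0 and 3 in pre-hibernation, late pre-hibernation, interbout euthermia and torpor, and became 2, 3, 2 and 5 without the rRNA-rich libraries and 4, 6, 3 and 7 with limma voom and quality weights (11.8%, 17.3%, 8.75% and 24% of all genes). Torpor against interbout euthermia went from 1 to 2 and 3 (10.8% of all genes with voom). The 6 groups went from 2 to 12 and 23 (43.6% of all genes with voom). Voom also called 3 for refractory against interbout euthermia (6.67% of all genes). DESeq2 called 1 in interbout euthermia against long photoperiod, 1 in refractory against interbout euthermia and 9 among the 6 groups (23.3% of all genes). Long photoperiod 1 to 3 alone left 0 calls in late pre-hibernation and 1 in torpor (1.43% and 4.44% of all genes). Long photoperiod 4 to 6 alone left 0 in both (1.2% and 3.19% of all genes). With no filter beyond 1 count there were 0 in late pre-hibernation, 1 in torpor, 1 in refractory against interbout euthermia and 1 among the 6 groups. The shares of all genes were then 1.51%, 3.39%, 6.45% and 18.9%. Endothelial and astrocyte covariates, chosen after seeing the data, gave 1 in pre-hibernation, 1 in refractory against long photoperiod and 6 among the 6 groups. The shares of all genes were 1.22%, 0.184% and 10.2%. These covariates turned the late pre-hibernation difference to 0.0439 for Slc3a2 and 0.000847 for Slc7a6os. They include Ntsr2, which itself differed between the groups. Neuron and oligodendrocyte covariates gave 1 among the 6 groups (12.9% of all genes), losing Slc38a3. Leaving out 1 library gave 0 to 2 calls in late pre-hibernation, 1 to 3 in torpor, 1 to 2 in torpor against interbout euthermia, 0 to 1 in refractory against interbout euthermia and 1 to 5 among the 6 groups. The causes were not tested. Library numbers did not pair the samples (same-number libraries had a median correlation of 0.011, and 3 of 36 correlated best with their own number). The replicate block left 1 call among the 6 groups (10.7% of all genes), losing Slc38a3 (adjusted p = 0.0886), and changed no other count by over 1.5 times. Genes under 1 CPM rest on few counts, so differences there were mostly not detectable at this depth.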

Other observations

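Some enzymes that use the carried amino acids changed with the season. Abat, which breaks down GABA, stood at 338.9, 457.1 and 580.4 CPM on long photoperiod (lowest, median, highest) and at 252.5, 461.7 and 537.6 CPM in the refractory group. It stood at 661.8, 810.2 and 1201 CPM in pre-hibernation, 700.1, 974.9 and 1129 CPM in late pre-hibernation, 630.1, 736.5 and 847.9 CPM in interbout euthermia and 618.8, 763.5 and 1077 CPM in torpor. All libraries of these 4 stages lay above all those of long photoperiod and of the refractory group. Against long photoperiod 3.52%, 4.49%, 2.39% and 7.77% of all genes had no overlap, in the same order of stages. Abat rose against long photoperiod in late pre-hibernation (1.07 ± 0.17, edgeR adjusted p = 5.93e-05) and torpor (0.84 ± 0.17, adjusted p = 0.000636), and fell in the refractory group against interbout euthermia (-0.77 ± 0.17, adjusted p = 0.0133). Of the 20 genes of glutamate, glutamine and GABA metabolism tested, it was the 1 that rose in torpor against long photoperiod, and 0 fell, where 4.32% of all genes rose and 4.73% fell. Leaving out the rRNA-rich libraries, 2 rose and 2 fell, where 21.2% of all genes passed.

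Gpt, which exchanges amino groups between alanine and glutamate, went the other way. It stood at 24.96, 29.15 and 32.1 CPM on long photoperiod and 17.2, 18.9 and 24.45 CPM in late pre-hibernation (-0.59 ± 0.11, adjusted p = 0.00042). These 2 groups had no overlap, as for 4.49% of all genes. Gpt was also lower in the refractory group (16.8, 20.45 and 21.2 CPM, -0.54 ± 0.11, adjusted p = 0.0101). Among 22 genes of serine, glycine and taurine metabolism, Sardh, a mitochondrial enzyme that makes glycine from sarcosine, rose in interbout euthermia (0.81 ± 0.17, adjusted p = 0.00518). There 2 of the 22 rose and 0 fell, with and without the rRNA-rich libraries. Of all genes, 1.21% rose and 0.642% fell with all libraries, and 4.73% passed without the rRNA-rich ones. Sardh also passed in pre-hibernation, late pre-hibernation and torpor against long photoperiod. In torpor 2 of the 22 rose and 2 fell, where 4.32% of all genes rose and 4.73% fell. Gldc, of the glycine cleavage system, fell in pre-hibernation (-0.92 ± 0.24, adjusted p = 0.0326), in 3 of 12 fits that left out 1 library. It also passed in late pre-hibernation and in torpor against long photoperiod. Of 24 genes of branched-chain amino acid breakdown, 0 passed in torpor against long photoperiod with all libraries, where 9.05% of all genes did. Once the rRNA-rich libraries were left out, 2 rose and 2 fell, where 21.2% of all genes passed. Against interbout euthermia 0 passed, and 1 fell without those libraries, where 4.06% and 8.94% of all genes passed.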
